A study of Mus musculus with 16 samples.

Results

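Integrins and laminins were followed across 3 tooth types of the mouse embryo. The genes were taken by symbol, as the integrin α and β subunit genes and the laminin α, β and γ chain genes. *Itgbl1*, which is neither, was added by name, and earlier results of these data were known at the choice. This gave 37 genes with 38 probe sets of a single symbol (*Itgad* had 2, and the one with the higher mean was used), out of 19938 genes and 35556 probe sets in all. RNA had been hybridized to Affymetrix Mouse Gene 1.0 ST arrays for 8 mandibular first molar, 4 maxillary first molar and 4 lower incisor samples. All came from wild-type embryos of C57Bl6 background at E14.5, and each sample pooled the RNA of 4 microdissected tooth germs. How the pools were spread over animals is not stated, so each p-value is about the variation from sample to sample and not from litter to litter. The study discarded 1 of the 4 incisor samples without naming it, and all 4 were kept here. A tooth germ joins dental epithelium and mesenchyme, and 9 of 10 tooth germ markers had a probe set. Their mean log2 signal per sample was 9.37 to 10.12 in mandibular molars, 9.97 to 10.22 in maxillary molars and 9.18 to 9.55 in incisors. The list includes *Barx1*, which the study ranks first among genes enriched in mandibular molars over incisors. These means are therefore no plain measure of tooth germ content. In such bulk samples, fewer cells of a type and less RNA per cell cannot be told apart.

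Integrins are cell surface receptors made of an α and a β subunit that link the cytoskeleton to the extracellular matrix or to other cells. The α subunit largely sets the ligand, so that some integrins read collagens, some laminins, some the RGD motif (arginine, glycine, aspartate) of fibronectin-like proteins, and those of leukocytes bind counter-receptors on other cells. Laminins are trimers of an α, a β and a γ chain and form, with type IV collagens, nidogens and perlecan, the basement membrane that separates the dental epithelium from its mesenchyme.

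Both genes that moved most in the comparisons below are shown by their promoters, from 250 bases before to 50 bases after the annotated start (RefSeq, GRCm38.p6), with CG pairs in capitals. *Itga8* lies on chromosome 2 (chr2:12301895-12302194, minus strand) and *Itgbl1* on chromosome 14 (chr14:123659890-123660189, plus strand). The pair of primers with which the study amplified *Itga8*, of 21 bases each, is given too, since *Itga8* was the only one of these genes measured by a second method.
Itga8 promoter: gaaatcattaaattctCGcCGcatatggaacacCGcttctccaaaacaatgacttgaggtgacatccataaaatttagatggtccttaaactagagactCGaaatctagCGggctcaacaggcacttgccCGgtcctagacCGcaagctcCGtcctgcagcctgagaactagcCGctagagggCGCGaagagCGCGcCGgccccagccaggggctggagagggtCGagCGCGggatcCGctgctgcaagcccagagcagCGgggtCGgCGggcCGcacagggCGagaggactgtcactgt
Itgbl1 promoter: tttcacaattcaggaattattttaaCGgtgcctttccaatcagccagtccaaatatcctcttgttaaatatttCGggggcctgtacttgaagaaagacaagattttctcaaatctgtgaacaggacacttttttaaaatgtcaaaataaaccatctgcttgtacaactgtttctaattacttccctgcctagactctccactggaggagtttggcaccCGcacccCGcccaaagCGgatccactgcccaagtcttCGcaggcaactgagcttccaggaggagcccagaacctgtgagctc
Itga8 forward primer: tgtctggcgttcaacttggat
Itga8 reverse primer: tccagtgagtagccgaagtag
The *Itga8* window held 23 CG pairs at a GC content of 59.0%, and 21.5% of the 32851 promoters of the table held as many or more. The *Itgbl1* window held 6 CG pairs at a GC content of 45.3%, a number that 56.4% of promoters reached. The letters TAATTA, a core bound by many homeodomain proteins that reads the same on both strands, occurred once in the *Itgbl1* window, 77 bases before the start, and not in that of *Itga8*. They were in 5.29% of all promoters and in 1 of the 27 promoters matched to 24 of the 37 genes. Such a match describes letters and is no sign that a factor binds there.

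All 37 genes lay above a log2 signal of 5 in all 16 samples, with means of 5.55 to 11.65, so none was lost to the filter on low values. Signals of different probe sets are not comparable as levels, and each gene is followed below only across samples. The range of a gene over the 16 samples had a median of 0.69 in log2 signal, from 0.24 for *Itga5*, the α subunit of the fibronectin receptor, to 2.69 for *Itgbl1*. Over all 17328 genes above 5 in at least 1 sample the median range was 0.51. Differences between the 3 tooth types held 93.5% of the variance over samples for *Itgbl1*, 83.4% for *Itga8*, 82.6% for *Itgb5* and 75.1% for *Itga4*, and a median of 34.9% for the 37 genes, against 30.7% for all genes. Although the labels name no batches, earlier results of these data divide the arrays into a first set, mandibular molars 1 to 4 and the lower incisors, and a second, mandibular molars 5 to 8 and the maxillary molars. Over all probe sets, the median Pearson correlation of mandibular molars 5 to 8 was 0.9942 with the maxillary samples and 0.9898 with the other mandibular ones. For mandibular molars 1 to 4 the gap was much smaller, with 0.9902 for the incisors against the same 0.9898. By this measure the first set is set apart only weakly. Each of the 37 genes called below between mandibular molars and either other group is therefore also given within a set. Other values are pooled over both sets unless a set is named.

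**Figure D1:**
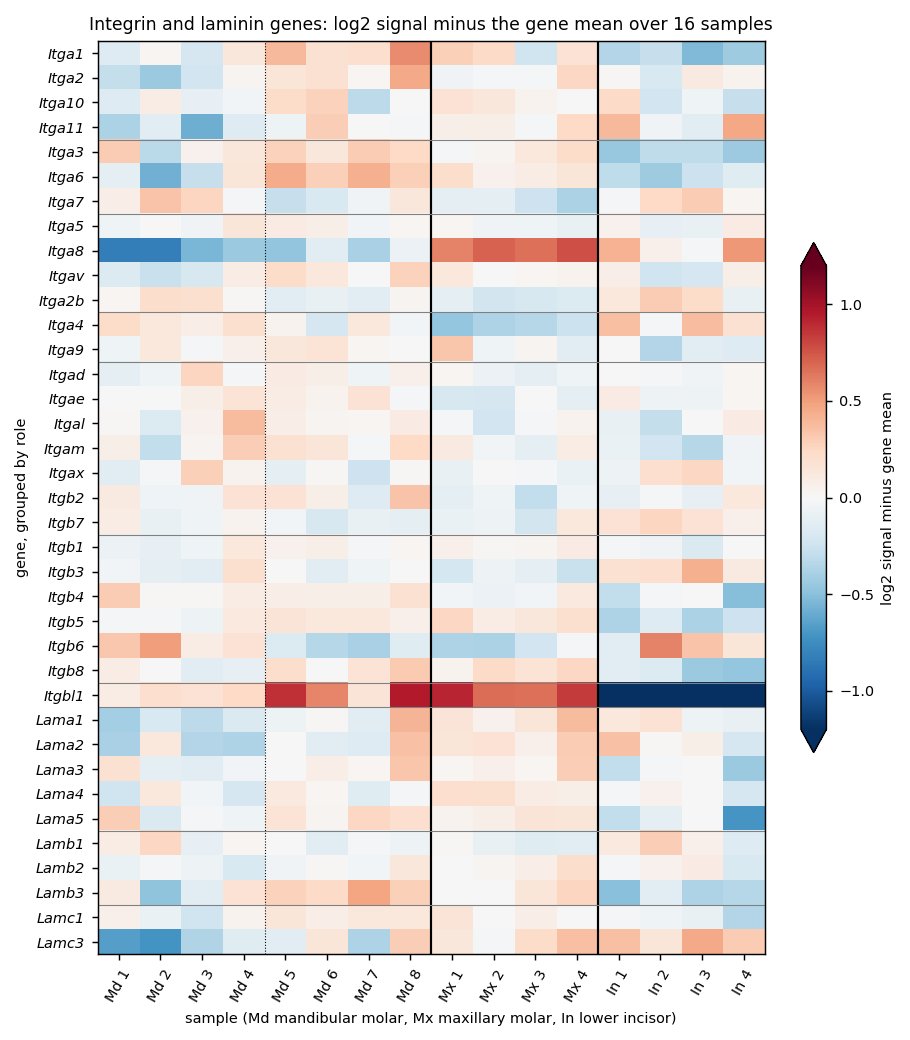
Log2 signal of each of the 37 genes (rows, grouped by role) in each of the 16 samples (columns), as the difference from the gene's mean over all samples, with a colour scale ending at 1.2 in each direction. The rows of *Itgbl1* and *Itga8* carry the strongest colours, *Itgbl1* low in all 4 incisors and *Itga8* low in all 8 mandibular molars, and the dotted line parts mandibular molars 1 to 4 from 5 to 8.

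Between mandibular molars and lower incisors, the signal of *Itgbl1* was 4.00-fold higher in molars, *Itga1*, *Itga3*, *Itgb5* and *Itgb8* were 1.27-fold to 1.45-fold higher, and *Itga8* was lower (1.63-fold). These were the 6 of 37 genes (16.2%) called by limma (Benjamini-Hochberg p below 0.1 and a change of over 1.2-fold), against 4.93% of the 29258 probe sets tested, or 7% with 1 probe set per gene. In the higher direction 5 of 37 were called, against 2.75% of probe sets, or 3.91% with 1 probe set per gene. In the lower direction 1 was, against 2.18%, or 3.09% with 1 probe set per gene. Without adjustment, 11 of the 37 genes were higher and 4 lower at p under 0.05, as were 9.51% and 8.86% of all probe sets, and the median log2 difference was 0.06, against 0.00 over all genes. Only *Itgbl1* passed 2-fold, as did 0.506% of all probe sets.

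*Itgbl1* encodes a secreted protein built of EGF-like repeats related to those of integrin β subunits, without the part that binds ligands in a β subunit. Its log2 signal in mandibular molars was 7.84 at the lowest, 7.98 at the median and 8.71 at the highest, against 6.10, 6.18, 6.02 and 6.38 in the incisors. The groups lay far apart. The log2 difference was 2.00 (standard error 0.17, adjusted p = 2.1e-05 by limma), and 1.77 within the first set (standard error 0.09, adjusted p = 5.01e-05). In maxillary molars the signal was 8.67, 8.43, 8.42 and 8.60, inside the range of the mandibular samples. Mandibular molars 1 to 4 lay at 7.84 to 8.00 and mandibular molars 5 to 8 at 7.91 to 8.71, and the difference between mandibular and maxillary molars was not called (log2 difference -0.36, standard error 0.17, adjusted p = 0.29, and -0.13 within the second set).

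*Itga1* encodes the α1 subunit, which with β1 forms a collagen receptor. It had a log2 signal of 7.47 at the lowest, 7.84 at the median and 8.25 at the highest in mandibular molars, against 7.33, 7.41, 7.15 and 7.25 in incisors, without overlap. The log2 difference was 0.54 (standard error 0.13, adjusted p = 0.0386 by limma), and 0.35 within the first set, which was not called (adjusted p = 0.206). Without incisor 3 the call was lost (adjusted p = 0.139). The other collagen-binding subunits *Itga2*, *Itga10* and *Itga11* had log2 differences of -0.01, 0.08 and -0.30 and were not called.

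*Itga3* encodes the α3 subunit, which with β1 reads laminins at the base of epithelia. In mandibular molars its log2 signal was 8.20 at the lowest, 8.72 at the median and 8.84 at the highest, against 8.08, 8.23, 8.23 and 8.10 in incisors. Only mandibular molar 2, the lowest, lay within the range of the incisors. The log2 difference was 0.51 (standard error 0.11, adjusted p = 0.0177 by limma), and 0.41 within the first set, which was not called (adjusted p = 0.278). Of the other laminin-binding subunits, *Itga6*, which pairs with β1 or β4, had a log2 difference of 0.36 (adjusted p = 0.289) and *Itga7*, best known from muscle, one of -0.10 (adjusted p = 0.635).

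*Itgb5* and *Itgb8* encode β subunits whose partner is αv, and αvβ8 is known for activating latent TGF-β. The log2 signal of *Itgb5* was 11.58 at the lowest, 11.74 at the median and 11.81 at the highest in mandibular molars, against 11.28, 11.50, 11.27 and 11.40 in incisors. Its groups did not overlap, and the log2 difference was 0.35 (standard error 0.06, adjusted p = 0.00807 by limma). For *Itgb8* the corresponding values were 8.12, 8.30 and 8.57 in mandibular molars, against 8.12, 8.10, 7.81 and 7.79 in incisors. Its groups touched, with mandibular molar 3 beside incisor 1, and the log2 difference was 0.37 (standard error 0.10, adjusted p = 0.0622 by limma). Neither was called within the first set, where the differences were 0.29 (adjusted p = 0.177) and 0.26 (adjusted p = 0.456), and *Itgb8* also lost its call without incisor 3 or 4 or mandibular molar 5 or 7 (adjusted p up to 0.211).

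The partners of these subunits were not called. *Itgb1*, the common β1 subunit, had a log2 difference of 0.06 (95% interval -0.06 to 0.19), and *Itgav*, the αv subunit, one of 0.09 (95% interval -0.16 to 0.33). Among the remaining β subunits, *Itgb4*, which with α6 anchors hemidesmosomes, lay higher in all 8 molars than in all 4 incisors, with a log2 difference of 0.31 that fell short of the threshold (adjusted p = 0.101). *Itgb3*, the β subunit of the platelet and vitronectin receptors, had -0.26 (adjusted p = 0.0858) at a fold change below 1.2, and *Itgb6*, an epithelial partner of αv, had -0.23 (adjusted p = 0.484). None of the 7 leukocyte integrin genes was called, with log2 differences between -0.22 for *Itgb7* and 0.26 for *Itgam*. *Itgb7* too was under the p threshold (adjusted p = 0.0709 by limma) at a fold change below 1.2.

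**Figure D2:**
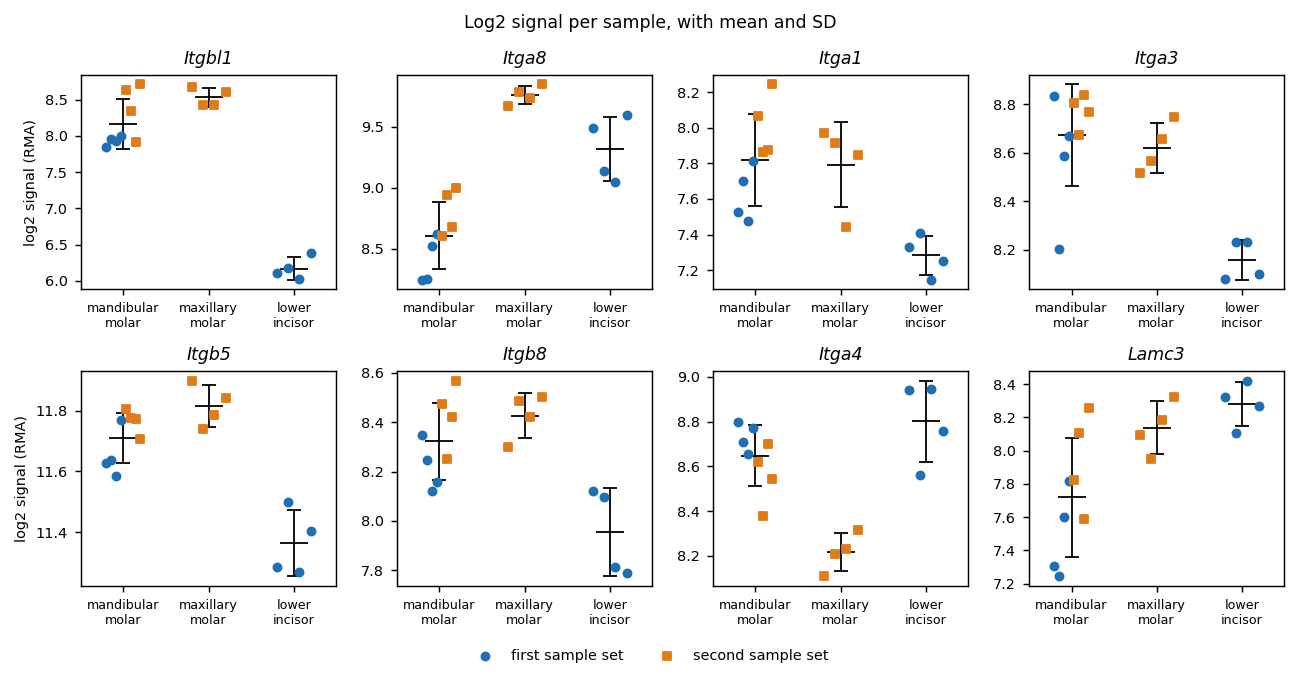
Log2 signal (vertical axes, each with its own range) of 8 genes in mandibular molars, maxillary molars and lower incisors, each point a sample, the sample set shown by colour and shape and horizontal lines with bars for mean and SD. *Itgbl1* is low in the 4 incisors alone, at 6.02 to 6.38, while *Itga8* is lowest in the mandibular molars, at 8.25 to 9.00.

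None of the 10 laminin genes was called between mandibular molars and incisors, against 4.93% of all probe sets, and their median log2 difference was -0.01. At an unadjusted p under 0.05, 3 were higher and 1 lower, as were 9.51% and 8.86% of all probe sets. *Lamb3*, the β chain of the laminin that hemidesmosomes hold, had a log2 difference of 0.46 (adjusted p = 0.128), and *Lama5*, a main α chain of embryonic epithelial basement membranes, one of 0.36 (adjusted p = 0.155). *Lama3*, the α chain that assembles with that of *Lamb3*, had 0.23 (adjusted p = 0.261). The chains of the widespread laminins lay near 0, with -0.07 for *Lamb1*, -0.02 for *Lamb2* and 0.16 for *Lamc1*.

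*Lamc3* encodes the γ3 chain, which is found in few laminins. In mandibular molars its log2 signal was 7.25 at the lowest, 7.71 at the median and 8.26 at the highest, against 8.32, 8.11, 8.42 and 8.27 in incisors. The upper mandibular samples reached into the incisor range. The log2 difference of -0.56 was not called (standard error 0.17, adjusted p = 0.105), whereas within the first set it was -0.79 and called (standard error 0.14, adjusted p = 0.0315 by limma). Within that set 3 of 37 genes (8.11%) were called, *Itgbl1* higher and *Itga8* and *Lamc3* lower. This stands against 1.78% of 29100 probe sets, or 2.71% with 1 probe set per gene.

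Epithelial markers varied between samples, as did several of these genes. The mean log2 signal of 9 of 10 epithelial markers was 10.03 to 10.68 in mandibular molars, 10.26 to 10.57 in maxillary molars and 10.03 to 10.28 in incisors, and each marker averaged 8.24 or more over the samples. Of the 9 markers, *Krt17* and *Grhl2* were called higher in mandibular molars than in incisors (22.2%), with log2 differences of 0.80 and 0.40. This stands against 2.75% of probe sets, or 3.91% with 1 probe set per gene. *Krt5* and *Krt14* had 0.08 and 0.06 and were not called. None of the 9 was called within the first set. Mandibular molar 2 had the lowest value of the markers among mandibular samples, 10.03 against 10.39 or more in the others, and it was also the lowest of them for 10 of the 37 genes, among them *Itga3*, *Itga6*, *Lama5*, *Lamb3* and *Lamc3*. It was the highest for 5, among them the epithelial *Itgb6*. Mandibular molar 1, whose markers averaged 10.61, was the lowest for 8 genes and mandibular molar 3 for 7. Without mandibular molar 2, 10 genes were called higher in molars than in incisors, *Itga6*, *Itgam*, *Itgb4*, *Lama5* and *Lamb3* in addition to the 5 above. The calls over the whole series rose too, to 2304 of 29170 probe sets in either direction, against 1441 of 29258 with all samples. The part of epithelial markers or content in these differences was not tested.

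**Figure D3:**
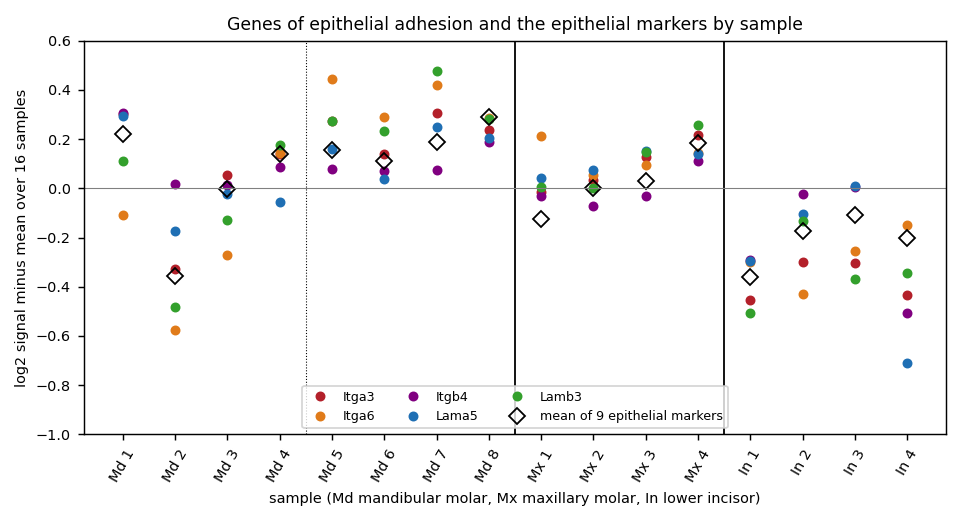
Log2 signal minus the gene's mean over 16 samples (vertical axis) for *Itga3*, *Itga6*, *Itgb4*, *Lama5* and *Lamb3* (filled points) and for the mean of 9 epithelial markers (open diamonds) in each sample. Mandibular molar 2 and incisor 1 have the lowest diamonds, at list means of 10.03 each, and most filled points are low in mandibular molar 2 and in the incisors. The genes shown are a choice, without *Itgb6*, *Itgb8* and *Lama3*. *Itgb6* went the other way, highest of the mandibular samples in mandibular molar 2 (6.83), with means of 6.33 in mandibular molars and 6.57 in incisors.

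Cartilage and muscle markers differed between the tooth types as well. The mean of 6 cartilage markers was 7.23 to 7.49 in mandibular molars and 7.57 to 9.08 in incisors. Of the 6, 5 were called lower in mandibular molars, against 2.18% of probe sets. Within the first set 1 of the 6 was called lower, against 0.832% of probe sets. *Itga10* and *Itga11*, collagen receptors of cartilage and of mesenchymal cells, were not called, with log2 differences of 0.08 and -0.30. The mean of 10 skeletal muscle markers was 7.33 to 8.54 in mandibular molars, 6.70 to 7.08 in maxillary molars and 8.26 to 8.48 in incisors. The highest mandibular value, 8.54, was that of mandibular molar 2, against 7.96 or less in the other 7. The part of these tissues in the integrin values was not tested.

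Between mandibular and maxillary molars, *Itga8* was 2.22-fold lower in mandibular molars and *Itga4* was 1.35-fold higher. These were 2 of 37 genes (5.41%), against 2.18% of the 29068 probe sets tested and 2.98% with 1 probe set per gene. Without adjustment, 5 of the 37 were higher and 6 lower at p under 0.05, as were 9.68% and 7.42% of all probe sets, and the median log2 difference was 0.01, against 0.02 over all genes. Only *Itga8* passed 2-fold, as did 0.196% of all probe sets. The mandibular samples are the same as in the comparison with incisors, so both comparisons share any deviation of theirs.

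*Itga8* encodes the α8 subunit, which with β1 forms the receptor for nephronectin and other RGD proteins and is needed in mice for kidney formation. Its log2 signal in mandibular molars was 8.25 at the lowest, 8.61 at the median and 9.00 at the highest, against 9.67, 9.78, 9.73 and 9.85 in maxillary molars. No sample of one jaw reached the other. The log2 difference was -1.15 (standard error 0.13, adjusted p = 0.000977 by limma), and -0.95 within the second set (standard error 0.09, adjusted p = 0.00577). There it was the only one of the 37 genes called (2.7%), against 1.28% of 28686 probe sets, or 1.72% with 1 probe set per gene.

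The incisors, at 9.49, 9.14, 9.05 and 9.60, stood between the jaws for *Itga8*, above all mandibular and below all maxillary molars. Against the incisors the log2 difference of mandibular molars was -0.71 (standard error 0.15, adjusted p = 0.0237 by limma), and -0.91 within the first set (standard error 0.15, adjusted p = 0.0252). The order was thus maxillary molar, lower incisor and mandibular molar, with each step past the threshold, although the step between maxillary molars and incisors is also one between sample sets. The mandibular samples themselves differed by set, at 8.25 to 8.63 in samples 1 to 4 and 8.60 to 9.00 in samples 5 to 8. Each omission of 1 sample left both calls of *Itga8* in place.

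The β partner and a ligand of α8 were not called in either comparison of mandibular molars. *Itgb1* had a log2 difference of -0.05 between mandibular and maxillary molars (95% interval -0.16 to 0.06). *Npnt*, which encodes nephronectin, averaged 11.46 ± 0.37 in the 8 mandibular, 11.97 ± 0.11 in the 4 maxillary and 11.29 ± 0.17 in the 4 incisor samples (log2 signal, mean ± SD). Its log2 difference was -0.50 against maxillary molars (adjusted p = 0.207) and 0.18 against incisors (adjusted p = 0.61), and within the sets it was -0.21 against maxillary molars (adjusted p = 0.447) and -0.12 against incisors (adjusted p = 0.917). In maxillary molars *Npnt* was higher than in incisors, with a log2 difference of 0.68 (adjusted p = 0.00226 by limma), and in mandibular molars 1 to 4 it was lower than in 5 to 8, with -0.59 (adjusted p = 0.0383). The other RGD-binding α subunits, *Itga5*, *Itgav* and *Itga2b*, had 0.06, -0.04 and 0.19 between the jaws and were not called.

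*Itga4* encodes the α4 subunit, which with β1 binds fibronectin and VCAM-1. In mandibular molars its log2 signal was 8.38 at the lowest, 8.68 at the median and 8.80 at the highest, against 8.11, 8.21, 8.23 and 8.32 in maxillary molars. The groups did not overlap. The log2 difference was 0.43 (standard error 0.08, adjusted p = 0.0155 by limma), and 0.34 within the second set, which was not called (adjusted p = 0.111). The incisors, at 8.94, 8.56, 8.95 and 8.76, overlapped with the mandibular molars (log2 difference -0.15, adjusted p = 0.381). Of the skeletal muscle markers, 8 of 10 were higher in mandibular than in maxillary molars, against 1.01% of probe sets. Within the second set 6 of 10 were, against 0.54%. The part of these markers in the difference of *Itga4* was not tested. *Itga9*, the closest relative of *Itga4*, had a log2 difference of 0.01, and *Itgb7*, the other partner of α4, one of 0.01.

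None of the 10 laminin genes was called between the jaws, against 2.18% of all probe sets. At an unadjusted p under 0.05, 4 of them were lower in mandibular molars and none higher, against 7.42% and 9.68% of all probe sets. Of the 10, 8 had a difference below 0, with a median of -0.08. Within the second set 5 were above and 5 below 0, with a median of -0.03. There 1 was higher and none lower at an unadjusted p under 0.05, against 7.45% and 5.4% of all probe sets. *Lamc3* had the lowest value, -0.42 (adjusted p = 0.259), and -0.19 within the second set. *Lama1*, an α chain of early embryonic basement membranes, and *Lama2*, that of muscle and nerve, both had -0.29 (adjusted p = 0.273 and 0.285). None of the 7 leukocyte integrin genes was called, and their log2 differences were 0.01 to 0.21.

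**Figure D4:**
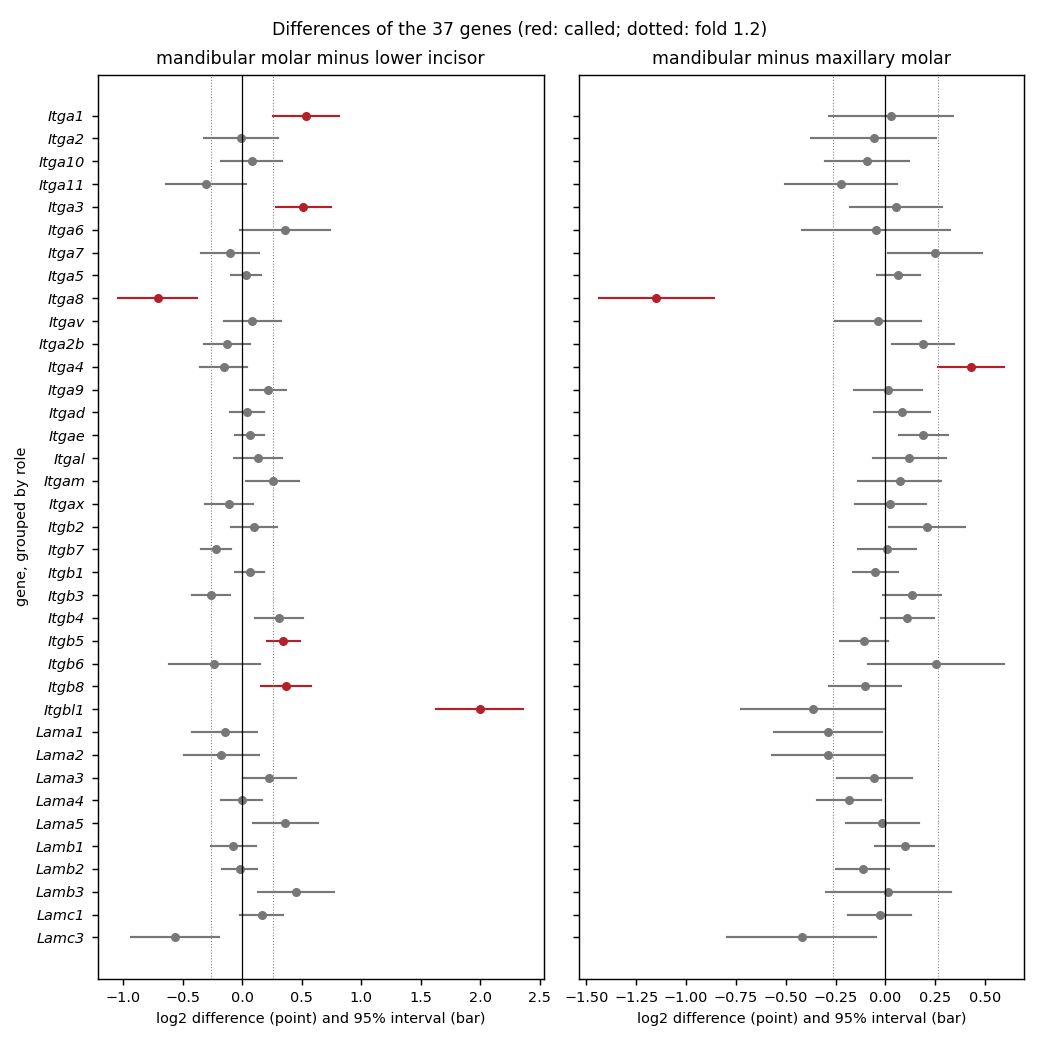
Log2 difference (point) with its 95% interval (bar) for each of the 37 genes, mandibular molar minus lower incisor on the left and mandibular minus maxillary molar on the right, with genes called in red and a fold change of 1.2 dotted. *Itgbl1* stands out at 2.00 on the left and *Itga8* at -1.15 on the right, and most other intervals span 0.

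Maxillary molars were set against incisors to complete the levels, a comparison the study did not make. Here tooth type cannot be told apart from sample set, and 27.8% of 29075 probe sets were called. Among the 37 genes, 15 (40.5%) were called, 10 higher in maxillary molars, against 14.4% of probe sets, and 5 lower, against 13.4%. *Itgbl1* had a log2 difference of 2.36 (standard error 0.10, adjusted p = 6.19e-06 by limma), and *Itga8* one of 0.44 (standard error 0.12, adjusted p = 0.0307). *Itga1*, *Itga3*, *Itgb5* and *Itgb8* were higher in maxillary molars too, by 0.51, 0.46, 0.45 and 0.47. The laminin receptor and laminin genes *Itga6*, *Lama3*, *Lama5* and *Lamb3* were also called higher, by 0.41, 0.28, 0.38 and 0.44, of which *Lama3* and *Lama5* lost their calls without incisor 1 or 4 or any single maxillary sample. Those called lower were *Itga4*, *Itgb6*, *Itgb3*, *Itga7* and *Itga2b*, with log2 differences of -0.58, -0.49, -0.39, -0.35 and -0.31, and *Itgb6* lost its call without maxillary molar 1 or 2 and *Itga2b* without incisor 2. All 10 skeletal muscle markers were lower in maxillary molars as well, beside *Itga7*, the laminin receptor subunit of muscle, and their part was not tested.

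Within the mandibular molars, samples 1 to 4 differed from samples 5 to 8 at 6 of the 37 genes (16.2%), against 11.8% of 28936 probe sets. *Itgb6* was higher in samples 1 to 4, with 6.42 to 6.83 against 5.94 to 6.18 in samples 5 to 8 and a log2 difference of 0.53 (standard error 0.10, adjusted p = 0.0226 by limma). *Itga6*, *Itga2*, *Itga8*, *Itga1* and *Itgav* were lower in samples 1 to 4, by -0.56, -0.44, -0.39, -0.39 and -0.29. The labels give the 8 samples as 1 group, and what sets them apart is not given in the sources used here.

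Genes known to work with integrins and laminins were read from 4 lists. Beside them stand 4.93% of all probe sets called against incisors and 2.18% against maxillary molars. With 1 probe set per gene, as in the lists, these shares were 7% and 2.98%. Of 23 basement membrane partners (type IV collagens, nidogens, perlecan, agrin, netrins and others), 2 were higher in mandibular molars than in incisors and none lower (8.7%), and 1 was higher and 1 lower than in maxillary molars (8.7%). *Ntn1*, which encodes netrin 1, had a log2 difference of 0.59 against incisors (adjusted p = 0.016) and 0.72 against maxillary molars (adjusted p = 0.00529), and was called within both sets (0.75 and 0.56). *Egflam*, which encodes pikachurin, a ligand of dystroglycan, had 0.44 against incisors (adjusted p = 0.0385) and -0.58 against maxillary molars (adjusted p = 0.0255), but was not called within the sets (0.27, adjusted p = 0.222, and -0.41, adjusted p = 0.127). The other 21 were called in neither comparison, and the median log2 difference of the list was 0.12 and 0.06.

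Of 23 integrin ligands other than laminins, 4 were higher in mandibular molars than in incisors (17.4%), with none lower. These were *Thbs2* (thrombospondin 2, log2 difference 0.66), *Tgfbi* (a matrix protein induced by TGF-β, 0.65), *Vcam1* (the cell surface ligand of α4β1, 0.51) and *Ccn1* (a matricellular protein, 0.39), and only *Vcam1* was called within the first set (0.54). Between the jaws 1 of the 23 (4.35%) was called, *Svep1*, a large matrix protein that binds α9β1, lower in mandibular molars by -0.44 and by -0.29 within the second set. Of 29 focal adhesion and integrin activation genes, 3 (10.3%) were higher in mandibular molars than in incisors, *Fermt1* (the epithelial kindlin, 0.90), *Vcl* (vinculin, 0.60) and *Fyn* (a Src family kinase, 0.32), and of these *Vcl* was called within the first set (0.40). Between the jaws only *Parvb*, which encodes β-parvin, was called among the 29 (3.45%), with -0.32, and it was not called within the second set (-0.25, adjusted p = 0.196). None of 10 hemidesmosome genes was called in either comparison. This list is not separate from the genes above, since *Itga6*, *Itgb4*, *Lama3* and *Lamb3* belong to both.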

How the data were processed

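The authors deposited log2 signals of 35556 probe sets, which per the labels had been made with RMA in Affymetrix Expression Console 1.1 (background correction, quantile normalization and summary by median polish). They were used without further normalization, and the number of arrays limits the precision. Probe sets were named where the platform annotation gave a single symbol (21789 of them; 1621 had several and 12146 none). Sample medians were 6.80 to 6.99. For each comparison, probe sets above 5 in at least 1 compared sample were fitted on those samples alone with lmFit and eBayes (limma 3.58.1, R 4.3.3, two-sided, no block), and p-values were adjusted over all of them by Benjamini-Hochberg. A gene was called at an adjusted p under 0.1 and a fold change above 1.2. Values per sample are given for *Itga8*, *Itgbl1* and each gene called between mandibular molars and incisors or between the jaws, to which *Lamc3* was added after its values were seen. Uncalled genes were to be named where they pair with one called there. Others, such as *Itga11*, *Itgb4*, *Lama5* and *Lamb3*, are named outside that rule. Up to 4 called genes per list are named, with *Npnt*. The genes and lists were chosen with earlier results of these data known. Of the genes in the lists, 13 had no probe set of a single symbol. The procedure was tested on simulated data. Alternatives were other filters, a floor, other normalizations, the methods' t-test, other variance models, sample subsets, a replicate block, a set term and omission of each sample, to which omissions for maxillary molars against incisors were added after seeing the data.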

Additional observations from a re-analysis of the deposited data

Results flagged for a closer look

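For *Itga3*, mandibular molar 2 lay at a log2 signal of 8.20469, with the nearest of the other 7 mandibular molars at 8.58617, a gap of 0.60 of the range of the group. Of 24 groups of samples looked at for the 8 genes with values per sample, this was the only one with such a gap, and chance gives it in about 1 in 20 groups. Mandibular molar 2 also had the lowest mean of the epithelial markers among the mandibular samples (10.03) and the highest mean of the skeletal muscle markers (8.54), and the part of either was not tested. Without it the log2 difference of *Itga3* from incisors was 0.58, against 0.51 with it.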

How the results depend on the processing

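No called gene changed direction under any alternative. Among the 37 genes, 3 uncalled ones had the opposite sign within the first set (*Itga7* 0.03, *Itgav* -0.06, *Itgb6* 0.03), as had *Npnt* (-0.12), and 10 did within the second set, all at a pooled log2 difference of 0.25 or less. Between mandibular molars and incisors (5 genes called higher and 1 lower), the counts were 10 and 2 with array weights, 8 and 2 with all 3 groups in 1 fit, 8 and 2 adjusted over 1 probe set per gene, 10 and 4 with mandibular molars 5 to 8 only, 1 and 2 with mandibular molars 1 to 4 only, 3 and 3 with a sample set term, 1 and 0 above 2-fold, and 6 and 2 with a filter above log2 6. The calls over all probe sets moved as well, from 1441 of 29258 to 4924 with array weights and 2035 with all 3 groups in 1 fit. They were 6050 of 29072 with mandibular molars 5 to 8, 518 of 29100 with 1 to 4 and 1068 of 29258 with the set term. Adjusted over 1 probe set per gene they were 1695 of 17309, and with the filter above log2 6 they were 1467 of 24539. Omission of 1 sample gave 4 to 10 higher, 4 without incisor 3 or 4 or mandibular molar 5 or 7 and 10 without mandibular molar 2, and 1 to 2 lower, with *Lamc3* added without mandibular molar 2, 6 or 8 and *Itgb3* without mandibular molar 4 or incisor 4. Between mandibular and maxillary molars (1 and 1), the counts were 4 and 6 with mandibular molars 1 to 4 only, 0 higher with mandibular molars 5 to 8 only, with a sample set term and above 2-fold, and 1 to 1 higher and 1 to 2 lower when 1 sample was left out, with *Lama1* added without mandibular molar 8. Here 5533 of 28910 probe sets were called with mandibular molars 1 to 4 only, against 635 of 29068 with all samples. *Itga8* and *Itgbl1* kept their calls against incisors, and *Itga8* that against maxillary molars, under each of the 12 omissions. The subsets and the omissions hold fewer samples, and the cause of the other moved counts was not tested.

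Samples share replicate numbers across groups. Deviations of same-numbered samples correlated at 0.08 to 0.51 and 0.00 to 0.34 in the comparisons with incisors and maxillary molars. Among all 8 mandibular samples, 2 of 4 samples in each comparison correlated best with their own number. This cannot decide whether the numbers pair the samples, since the mandibular deviations also hold the difference between samples 1 to 4 and 5 to 8. The main fits used no pairing. A replicate block, in which only mandibular molars 1 to 4 have a partner, gave 1 higher and 2 lower against incisors, and 4 higher and 8 lower against maxillary molars. Over all probe sets, 1441 were called against incisors and 635 against maxillary molars, and these counts were 539 and 5832 with the block, 518 and 5533 with mandibular molars 1 to 4, 6050 and 368 with 5 to 8, 4924 against incisors with array weights, 279 against maxillary molars with the set term, and 900 to 2304 and 266 to 841 when 1 sample was left out.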
